A study of Mus musculus with 3 samples.

Results

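The Distal-less homeobox (Dlx) genes encode 6 transcription factors that lie in the mouse genome as 3 gene pairs, Dlx1 with Dlx2, Dlx3 with Dlx4, and Dlx5 with Dlx6. They were examined for ubiquitinated histone H2A (H2AK119ub) by chromatin immunoprecipitation and sequencing (ChIP-seq). A called region was assigned to a pair when its gene-name field held a Dlx gene or when it overlapped the interval spanned by both genes of the pair. This rule found 6 of the 7838 regions of replicate 1 and 7 of the 8093 regions of replicate 2, 13 of 15931 in all. Of the 13, 8 were of the promoter class and 5 of the distal class in the authors' annotation. Of all regions, 2701 of 7838 in replicate 1 and 2623 of 8093 in replicate 2 were of the promoter class. The rule itself favours regions at genes, so the classes of the 13 are no result.

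The material was tongue epithelium of newborn mice at postnatal day 0 with the genotype given as control, sorted on the epithelial surface protein EpCAM after the posterior circumvallate papillae had been cut away. There were 2 H2AK119ub libraries, described as biological replicates, and 1 input library made without antibody, which was not analysed here. The sources used here do not state strain, sex or the number of animals behind a library. Both H2AK119ub libraries belong to 1 group, so no test between conditions was possible and the values below are given per replicate. The lists hold positions, a location class and gene names, with no read count, height or p-value, so sequencing depth is unknown.

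H2AK119ub is deposited by Polycomb repressive complex 1 and is known for marking silent developmental genes, often over whole gene clusters. The Dlx pairs arose from an ancestral pair by duplication. The genes of a pair are transcribed towards each other and share enhancers, many of them in the sequence between the genes. Dlx1 and Dlx2 are known for the making of forebrain inhibitory neurons and of the upper jaw. Dlx5 and Dlx6 specify the lower jaw downstream of endothelin signalling. Dlx3 acts in epidermis, hair, teeth and placenta, and Dlx4 is less well studied.

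Of the 6 Dlx genes, 5 were named by a promoter region in both replicates (83.3%), whereas 8.82% of the 21627 protein-coding genes of the reference were. Replicate 1 named 5 of the 6, against 12.8% of all protein-coding genes, and replicate 2 named all 6, against 12.4%. The exception was Dlx2 in replicate 1. The genes of a pair share regions, so the 6 are not independent, and the genes were chosen with earlier results of these data known, so the share carries no test.

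**Figure D1:**
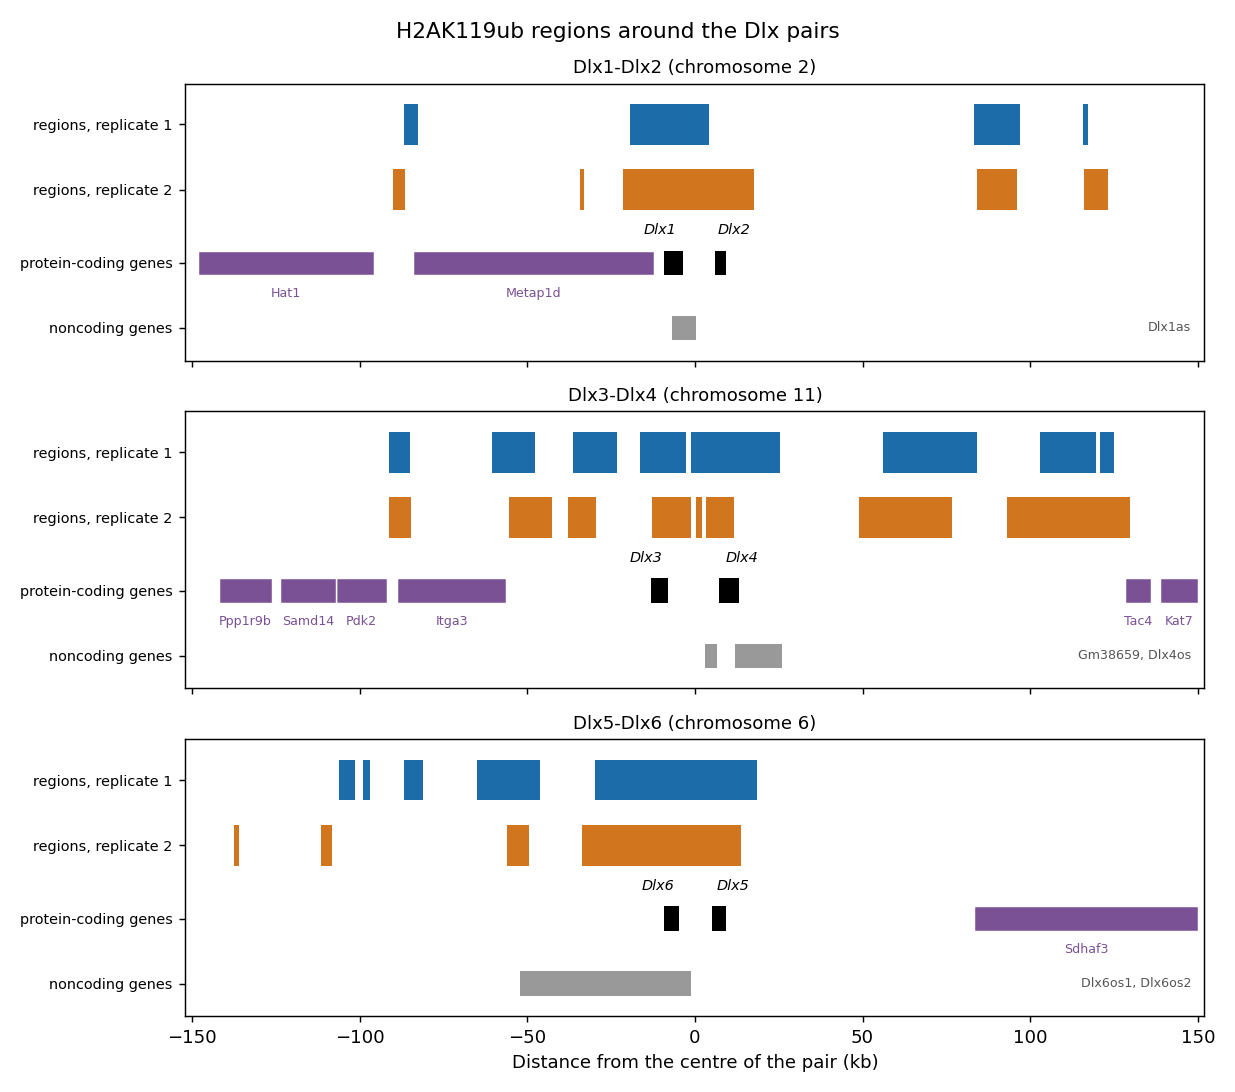
H2AK119ub regions of replicate 1 (blue) and replicate 2 (orange) within 150 kb of each Dlx pair, by distance in kb from the centre of the pair, with Dlx genes in black, neighbouring protein-coding genes in purple and noncoding genes at the pair in grey. Dlx5 and Dlx6 lie inside 1 region in both replicates, the Dlx1 region stops short of Dlx2 in replicate 1, and Dlx3 and Dlx4 lie in separate regions.

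The sequences at the starts of the genes come from RefSeq on GRCm38.p6, the assembly that mm10 names, as windows from 250 bases before to 50 bases after a transcription start. The reference table held windows for Dlx1 and Dlx2 and for the noncoding genes Dlx4os, Dlx6os1 and Dlx6os2. The windows of Dlx1 (chr2:71529195-71529494, plus strand) and Dlx2 (chr2:71546705-71547004, minus strand) are shown because the regions of the replicates differ over the start of Dlx2. That of Dlx4os (chr11:95144803-95145102, plus strand) is shown because a region edge fell inside it. A window of Dlx6os1, which has 2 in the table (chr6:6869484-6869783, minus strand), is shown for its different base composition. Each is written 5′ to 3′ on its own strand, with every CG dinucleotide in capitals.
Dlx1: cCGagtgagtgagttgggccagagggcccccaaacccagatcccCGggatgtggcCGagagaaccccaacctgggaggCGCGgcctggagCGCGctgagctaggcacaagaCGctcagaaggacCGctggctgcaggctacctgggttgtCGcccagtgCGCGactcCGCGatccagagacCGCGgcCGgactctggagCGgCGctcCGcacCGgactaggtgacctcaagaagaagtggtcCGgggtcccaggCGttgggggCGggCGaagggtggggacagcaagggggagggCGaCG
Dlx2: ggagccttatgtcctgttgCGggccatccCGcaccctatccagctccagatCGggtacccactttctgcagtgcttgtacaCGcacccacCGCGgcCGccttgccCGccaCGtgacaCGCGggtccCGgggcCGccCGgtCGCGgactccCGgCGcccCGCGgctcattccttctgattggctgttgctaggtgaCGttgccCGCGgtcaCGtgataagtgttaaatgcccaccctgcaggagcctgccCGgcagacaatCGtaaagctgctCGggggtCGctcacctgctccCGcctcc
Dlx4os: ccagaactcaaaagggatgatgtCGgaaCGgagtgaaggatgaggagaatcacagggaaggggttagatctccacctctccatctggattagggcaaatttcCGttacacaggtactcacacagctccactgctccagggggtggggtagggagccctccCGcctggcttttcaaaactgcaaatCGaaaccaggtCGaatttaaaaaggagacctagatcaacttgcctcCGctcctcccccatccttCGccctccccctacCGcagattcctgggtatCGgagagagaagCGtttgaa
Dlx6os1: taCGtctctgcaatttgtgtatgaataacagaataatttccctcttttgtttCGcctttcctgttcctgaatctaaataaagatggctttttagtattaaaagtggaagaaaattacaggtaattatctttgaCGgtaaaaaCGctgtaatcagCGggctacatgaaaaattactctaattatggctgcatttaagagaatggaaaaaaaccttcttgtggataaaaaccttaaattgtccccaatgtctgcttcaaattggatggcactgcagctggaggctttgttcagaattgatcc

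CG dinucleotides are the sites of DNA methylation and are dense in CpG islands, where Polycomb complexes are often found. The Dlx1 window held 27 of them and the Dlx2 window 29, against a median of 7 over all 32851 windows of the table. At least 27 were present in 15.5% of all windows and at least 29 in 12.9%. Windows of protein-coding genes named by a promoter region in both replicates had a median of 19, and those of other protein-coding genes a median of 12. The noncoding windows were poorer: Dlx4os held 11, Dlx6os2 held 10, and the Dlx6os1 starts held 5 and 3. The letters TAATTA, a core that homeodomain proteins bind and that reads the same on both strands, occurred 2 times in the printed Dlx6os1 window and 1 time in the other Dlx6os1 window. They did not occur in the Dlx1, Dlx2, Dlx4os or Dlx6os2 windows. Of all windows, 5.29% held TAATTA.

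The start windows of Dlx1, Dlx6os1 and Dlx6os2 lay wholly inside regions in both replicates. That of Dlx2 lay wholly inside a region in replicate 2, while in replicate 1 the nearest region ended 5.05 kb from the start. The start of Dlx4os lay inside a region in replicate 1. In replicate 2 the nearest region ended 213 bp before that start, and 12.4% of the window was covered. Among these windows, the CG-rich Dlx1 start and the CG-poor Dlx6os1 starts were covered in both replicates, and the CG-rich Dlx2 start in 1. Both Dlx6os1 starts lay inside the wide region over Dlx5 and Dlx6. The windows are few, so a link between CG content and coverage was not tested.

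Dlx5 and Dlx6, the lower jaw pair on chromosome 6, lay in the widest of the Dlx regions. The region was chr6:6842749-6891255 in replicate 1, a width of 48.5 kb, and chr6:6839104-6886510 in replicate 2, a width of 47.4 kb. It was wider than 99.5% and 99.7% of the lists of replicates 1 and 2, over every location class. Both genes and the 9.83 kb between them were covered in full in both replicates. The genes themselves, Dlx6 from 6863334 to 6867970 and Dlx5 from 6877801 to 6882068, filled 18.4% of the region in replicate 1 and 18.8% in replicate 2, so most of it lay outside them. It reached 20.6 kb and 24.2 kb past the Dlx6 side of the pair in replicates 1 and 2, and 9.19 kb and 4.44 kb past the Dlx5 side. The longer reach was on the Dlx6 side in both replicates. Of the bases in the region of either replicate, 83.9% were in both.

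The long noncoding gene Dlx6os1, known as Evf2 and transcribed across an enhancer of the pair, extends from 6820543 to 6871627, well beyond Dlx6. Regions covered 68.2% of it in replicate 1 and 68.9% in replicate 2, in 2 pieces each. One piece was the region shared with Dlx5 and Dlx6. The other was a distal region that the authors named for Dlx6, 18.8 kb wide in replicate 1 and 6.49 kb wide in replicate 2, which lay over the far end of Dlx6os1. It was 36.8 kb and 40.1 kb from the nearer Dlx gene. The gap between the pieces was 16.2 kb and 15.9 kb, so a stretch of Dlx6os1 between them was free of called regions in both replicates. The short noncoding gene Dlx6os2, which lies within Dlx6, was covered in full in both.

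Dlx1 and Dlx2 on chromosome 2 differed between the replicates. In replicate 1 the region was chr2:71517953-71541703, 23.8 kb wide, and carried the names of Dlx1 and its antisense gene Dlx1as. In replicate 2 it was chr2:71515883-71554941, 39.1 kb wide, and carried the name of Dlx2 as well. Dlx1 (71528113 to 71533981) and Dlx1as (71530638 to 71537891) were covered in full in both replicates. Dlx2 (71543408 to 71546754) was covered in full in replicate 2 and not at all in replicate 1, where the region ended 1.71 kb before the gene. Of the 9.43 kb between the genes, 81.9% was covered in replicate 1 and 100% in replicate 2. The whole pair was covered to 72.9% and 100%, which is 86.5% ± 19.2 (SD, n = 2).

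The edges of this region did not move alike. At the Dlx1 side they lay 2.07 kb apart between the replicates, and at the Dlx2 side 13.2 kb apart. Among 1468 promoter regions that paired one to one between the replicates, the median difference of an edge was 1.18 kb and 90% of edges differed by at most 5.16 kb. The Dlx2 side differed by more than 98.8% of those edges, and the Dlx1 side by more than 66.1%. Of the 395 protein-coding genes that replicate 2 named in promoter regions of at least 20 kb, 31 (7.85%) were not named by a promoter region of replicate 1, and Dlx2 was 1 of them. Because no signal heights were given, whether replicate 1 had signal over Dlx2 below its calling threshold was not tested.

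Towards the neighbouring gene Metap1d, which encodes a mitochondrial methionine aminopeptidase, the Dlx1 region extended 10.2 kb past Dlx1 in replicate 1 and 12.2 kb in replicate 2. It thereby entered the end of Metap1d by 7.24 kb and 9.31 kb. On the other side the next region lay 79.0 kb beyond the Dlx1 region in replicate 1 and 66.7 kb beyond the Dlx1 and Dlx2 region in replicate 2.

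Dlx3 and Dlx4 on chromosome 11 were the pair called in separate regions. For Dlx3 the promoter region of replicate 1 was chr11:95116952-95130446, with a width of 13.5 kb, and that of replicate 2 was chr11:95120317-95132159, with a width of 11.8 kb. For Dlx4 they were chr11:95131933-95158560 (26.6 kb, replicate 1) and chr11:95136406-95144840 (8.43 kb, replicate 2). A gap of 1487 bp parted them in replicate 1. In replicate 2 a distal region of 1.72 kb, named for Dlx4os, lay between them with gaps of 1328 and 1199 bp. The smallest gap anywhere in the lists was 1000 bp in replicate 1 and 999 bp in replicate 2, so these gaps were close to the least distance at which regions stand apart.

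Dlx3, the epidermal member (95120117 to 95125296), was covered in full in replicate 1 and to 96.1% in replicate 2, where the region began 0.20 kb inside it. Dlx4 (95140447 to 95146294) was covered in full in replicate 1 and to 75.1% in replicate 2. In replicate 2 the region stopped 1.45 kb short of the outer end of Dlx4, yet it carried the promoter class and the names of Dlx4 and Dlx4os. Neither outer end of this pair thus lay in a region in replicate 2. Genes transcribed towards each other start at their outer ends. The reference table held no start windows for Dlx3 and Dlx4, so coverage of their starts was not tested. Dlx4os (95145053 to 95159047), a long noncoding gene that begins inside Dlx4, was covered to 96.5% in replicate 1 and not at all in replicate 2. The noncoding gene Gm38659, which lies between the pair, was covered to 100% and 95.5%. The pair as a whole was covered to 94.3% and 84.0%, or 89.2% ± 7.28 (SD, n = 2), but 49.3% of the bases in regions of either replicate were in both.

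The outer edge of the Dlx4 region differed by 13.7 kb between the replicates, more than 98.9% of the edges of one-to-one promoter regions. Its inner edge differed by 4.47 kb, measured to the promoter region of replicate 2 and not to the 1.72 kb distal region. The Dlx4 region of replicate 1 overlapped 3 regions of replicate 2, so it was not itself one-to-one. Both edges of the Dlx3 region were closer, at 3.37 and 1.71 kb. Among the regions matched between the replicates, only the Dlx1 and Dlx2 region was wider in replicate 2. The Dlx3 region (13.5 against 11.8 kb), the Dlx4 region (26.6 against 8.43 kb) and the Dlx5 and Dlx6 region (48.5 against 47.4 kb) were wider in replicate 1. So were the distal regions named for Dlx3 (13.2 against 8.35 kb) and Dlx6 (18.8 against 6.49 kb). The median width of all regions was also larger in replicate 1, at 4.86 kb against 4.22 kb in replicate 2.

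**Figure D2:**
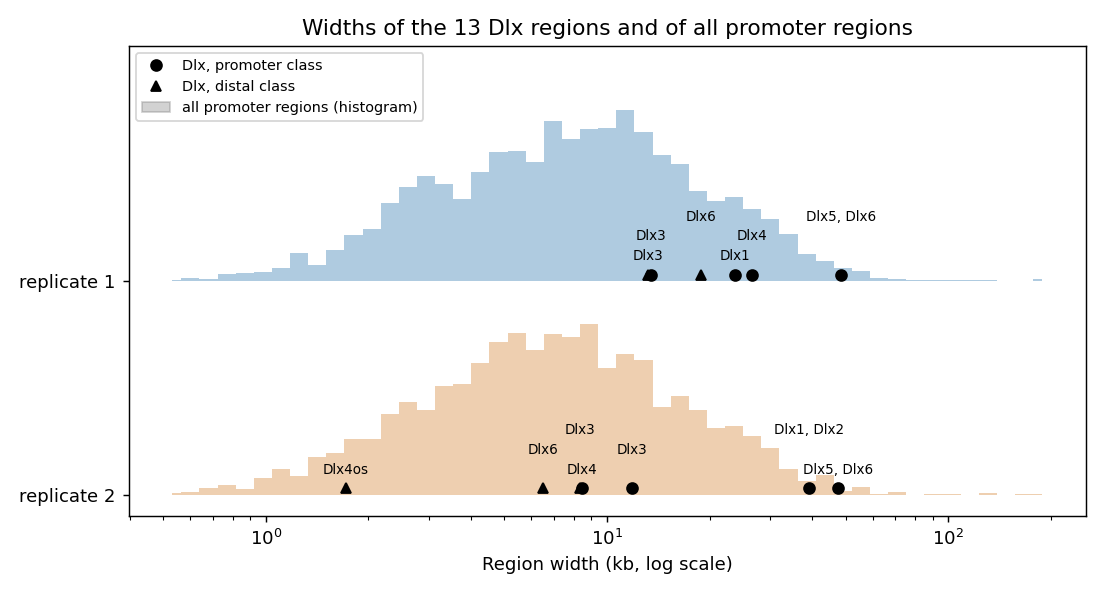
Widths in kb (log scale) of the 13 regions at the Dlx pairs, as circles (promoter class) and triangles (distal class) with the Dlx genes or Dlx4os they name, over histograms of all promoter regions of each replicate. The Dlx5 and Dlx6 region lies near the upper end in both replicates (48.5 and 47.4 kb), while the Dlx3 promoter region is wider than 73.0 and 73.9% of promoter regions.

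Set against promoter regions alone, whose median width was 8.08 kb in replicate 1 and 6.84 kb in replicate 2, the Dlx5 and Dlx6 region was wider than 99.0% and 99.2%. The Dlx1 region was wider than 89.7% in replicate 1 and the Dlx1 and Dlx2 region wider than 98.4% in replicate 2. The Dlx3 region was wider than 73.0% and 73.9%, and the Dlx4 region wider than 92.1% and 59.5%. The Dlx3 region held nearly the same place among promoter regions in both lists, whereas the Dlx4 region did not. All 13 regions overlapped a region of the other replicate by at least 1 bp, a rule that wide regions meet more easily. The share of all regions that did so is not given here, so this count is no result about the Dlx regions. Of the distal Dlx6 region of replicate 1, 34.5% of bases were shared.

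A distal region named for Dlx3 lay on its outer side, 10.2 kb from the gene in replicate 1 (chr11:95096689-95109901, 13.2 kb) and 16.5 kb from it in replicate 2 (chr11:95095257-95103610, 8.35 kb). Beyond it came a promoter region of Itga3, the gene of an integrin chain of basal epithelial cells, 12.95 kb wide in replicate 1 and 13.03 kb in replicate 2. It was separated from the distal Dlx3 region by 11.2 kb and 4.56 kb. On the Dlx4 side an intergenic region of 27.9 kb in replicate 1 and 27.7 kb in replicate 2 lay between Dlx4 and the tachykinin gene Tac4, and carried no gene name.

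Around the Dlx3 and Dlx4 pair, regions took up 39.1% and 37.5% of the pair with 150 kb on each side, in 9 regions in each replicate. The same measure was 13.6% and 19.7% around Dlx1 and Dlx2, and 25.1% and 18.4% around Dlx5 and Dlx6. Over the 1908 protein-coding genes named in both replicates its median was 9.57% and 9.02%, and 94.9% and 96.2% of them were below the Dlx3 and Dlx4 value. Among the 3 Dlx pairs, the one called in separate regions thus had the most covered surroundings in both replicates.

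The 4 nearest protein-coding genes on each side of each pair made 24 neighbours. They lay from 2.92 kb (Metap1d) to 1367 kb (Pdk4) from the pair, so many were not close to it. Of these, 3 were named by a promoter region in both replicates (12.5%), beside the 8.82% of all protein-coding genes, and 18 were named by none in either. The share was near the background. The 3 were Itga3 and Pdk2, 43.3 and 78.7 kb from Dlx3, and Pdk1, 326 kb from Dlx2.

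Related genes flank the different pairs. The integrin gene Itga3 had promoter regions, whereas Itga6, the integrin gene nearest Dlx2, had none. In replicate 1 a region that the authors named for Mir5098 and not for Itga6 covered 20.2% of Itga6, and in replicate 2 the nearest region was 13.9 kb away. The pyruvate dehydrogenase kinase genes Pdk1 (2.92 and 4.05 kb) and Pdk2 (6.23 and 6.51 kb) had promoter regions. Pdk4, which lies 1367 kb from Dlx6, had no region within 89.3 kb in replicate 1 or 89.9 kb in replicate 2. Tac4 was named by distal regions in replicate 1 and by a promoter region in replicate 2, which was 36.5 kb wide. Tac1, which encodes the precursor of substance P, lies 673 kb from Dlx5. It had no region within 322 kb in replicate 1 or 376 kb in replicate 2. Of the dynein chain genes, Dync1i1, 835 kb from Dlx6, was named by a promoter region of 1.48 kb in replicate 2 alone. Dync1i2, 265 kb from Dlx1, had none. The mitochondrial carrier genes Slc25a12 and Slc25a13 had no region over them in either replicate.

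**Figure D3:**
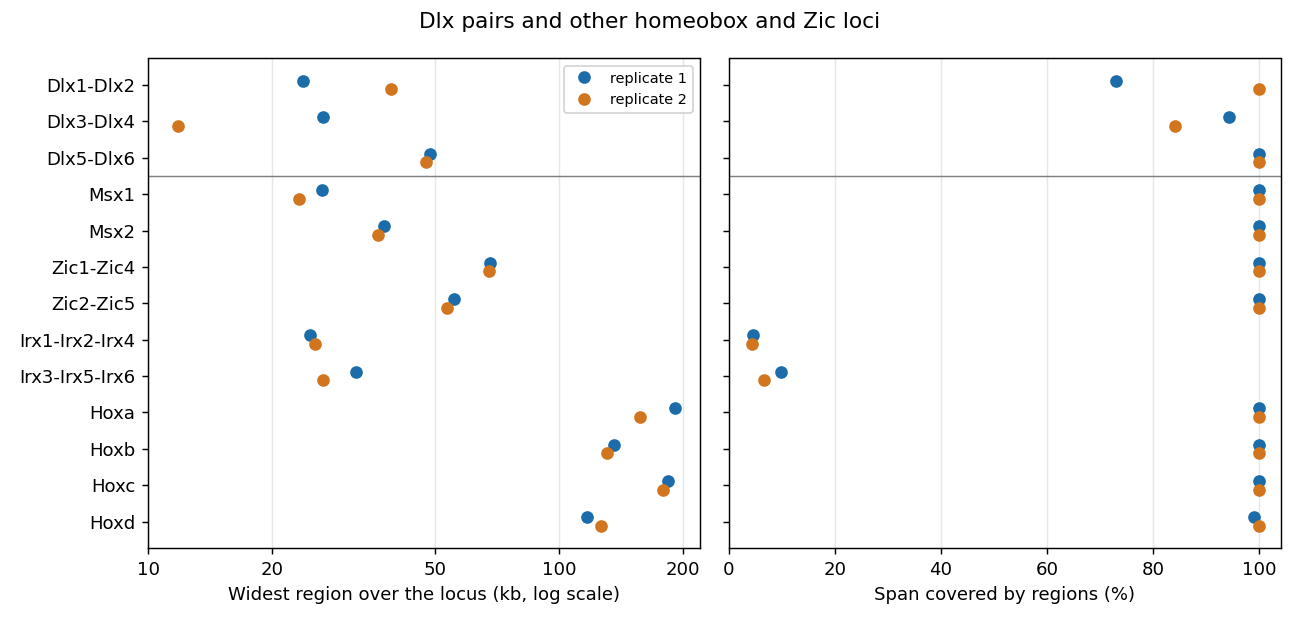
Width of the widest region over each locus (left, kb, log scale) and percent of the interval between the outer ends of its genes that lies in regions (right), in replicate 1 (blue) and replicate 2 (orange). The Dlx5 and Dlx6 points of the replicates nearly coincide at 48.5 and 47.4 kb, those of the other Dlx pairs are apart, and each Dlx pair lies below the Hox clusters in width.

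Other homeobox loci and the Zic pairs were measured the same way. The Zic genes, which encode zinc finger factors of neural development, also lie in pairs. At the Dlx pairs the widest region was 23.8 and 39.1 kb (Dlx1 and Dlx2), 26.6 and 11.8 kb (Dlx3 and Dlx4), and 48.5 and 47.4 kb (Dlx5 and Dlx6) in replicates 1 and 2. At Dlx3 and Dlx4 it was the Dlx4 region in replicate 1 and the Dlx3 region in replicate 2, so those values are not of the same region. The widest region was 68.1 and 67.6 kb at Zic1 and Zic4, and 55.4 and 53.4 kb at Zic2 and Zic5. Msx1 and Msx2, homeobox genes of jaw and tooth related to Dlx, lay in regions of 26.5 and 23.3 kb and of 37.5 and 36.2 kb. Bases of either replicate that were in both made up 60.8%, 49.3% and 83.9% at the 3 Dlx pairs in the same order, against 99.2% and 96.3% at the Zic pairs and 87.6% and 76.1% at Msx1 and Msx2. The same share was 82.0% at Hoxa, 95.5% at Hoxb, 97.4% at Hoxc and 95.3% at Hoxd. At the Iroquois (Irx) homeobox clusters it was 84.7% (Irx1, Irx2 and Irx4) and 38.4% (Irx3, Irx5 and Irx6). The Dlx1 and Dlx2 pair and the Dlx3 and Dlx4 pair thus lay below every compared locus but the Irx3, Irx5 and Irx6 cluster. That cluster held 7 separate regions in replicate 1 and 8 in replicate 2. The Dlx5 and Dlx6 pair lay among the other loci. These are single values for each locus and were not tested.

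The Iroquois clusters, with longer distances between their genes, were covered to 4.57% and 4.37% (Irx1, Irx2 and Irx4) and to 9.93% and 6.70% (Irx3, Irx5 and Irx6). The Dlx pairs, whose spans are 18.6, 26.2 and 18.7 kb, were thus covered to a greater extent than those spans of 1311 and 882 kb. The widest region at the Iroquois clusters was 24.7 and 25.5 kb (Irx1, Irx2 and Irx4) and 32.1 and 26.6 kb (Irx3, Irx5 and Irx6), within the range of the Dlx pairs. The spans of both Zic pairs (31.3 and 21.2 kb) were covered to 100% in both replicates, as at Dlx5 and Dlx6. This was more than at Dlx1 and Dlx2 in replicate 1 and at Dlx3 and Dlx4 in both. Msx1 and Msx2 were also covered to 100%, but they are single genes of 4.09 and 5.90 kb. Dlx1 alone was likewise covered in full in both replicates. Each Dlx pair shares a chromosome with a Hox cluster. The distance was 3.12 Mb from Dlx2 to the Hoxd genes, 1.13 Mb from Dlx4 to Hoxb and 45.3 Mb from Dlx5 to Hoxa.

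By width in both replicates, the genes most like the Dlx1 and Dlx2 pair were Lgr6 (21.7 and 41.0 kb), Onecut3 (26.9 and 35.6 kb) and Wnk2 (26.7 and 34.0 kb). For Dlx3 and Dlx4 no such genes are named, since the widest region there was a different one in each replicate. Those most like Dlx5 and Dlx6 were BC107364 (47.1 and 47.9 kb), Gata4 (46.7 and 48.1 kb) and Cdkn2a (50.6 and 50.1 kb). Likeness was the sum over the 2 replicates of the absolute log2 ratio of widths, so it describes width alone.

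Genes that act with the Dlx factors were counted in 5 lists, chosen like the Dlx genes with earlier results known. Shares are of genes named by a promoter region in both replicates and are to be read beside 8.82% of all protein-coding genes. Several genes stand in more than 1 list, and none of the counts was tested.

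Of 35 homeobox relatives of the NK-like class, to which Dlx genes belong, 31 were named in both replicates (88.6%). The widest were Vax2 (43.9 and 45.3 kb), a factor of the ventral eye, Nkx2-1 (43.3 and 43.7 kb), a factor of thyroid, lung and ventral forebrain, Msx2, Barhl2 (31.8 and 35.7 kb), the heart factor Nkx2-5 (34.9 and 30.9 kb) and Tlx3 (39.9 and 23.5 kb). The median width over the 31 was 25.3 kb in replicate 1 and 23.3 kb in replicate 2. Among those named in replicate 2 alone were Bsx and Noto, as was Dlx2 among the Dlx genes. Barx2 had no promoter region in either.

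Of 30 genes of endothelin signalling and jaw patterning, 17 were named in both replicates (56.7%). Among the widest regions were those at Hand2 (56.6 and 56.7 kb), which acts below endothelin and Dlx5 and Dlx6 in the lower jaw, the nuclear receptor gene Nr2f1 (49.1 and 53.3 kb), Gbx2 (47.1 and 32.4 kb), Msx2 (37.5 and 36.2 kb), and Pou3f3 (36.0 and 37.1 kb), which the Dlx factors control in the upper jaw. Among the signalling components upstream of Dlx5 and Dlx6, the ligand gene Edn1 had its nearest region 34.0 kb away in replicate 1 and 558 kb away in replicate 2. Its receptor gene Ednra was named by a promoter region in replicate 2 alone (7.30 kb). Ece1, the gene of an enzyme that produces the mature ligand, was named by a promoter region in replicate 2 (9.29 kb) and by a region of another class in replicate 1. Gna11, a G protein gene, was named by a region of another class in replicate 2, and in replicate 1 its nearest region was 26.8 kb away. Furin, which cleaves the precursor of the ligand, the related G protein gene Gnaq and the phospholipase gene Plcb3 had no region over them or named for them in either replicate.

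Of 18 forebrain inhibitory neuron genes, 13 were named in both (72.2%). Among the widest regions were those at Nkx2-1, Sp8 (30.6 and 32.0 kb), Gsx2 (33.7 and 26.4 kb), which acts upstream of Dlx1 and Dlx2, Lhx6 (27.4 and 25.6 kb) and Slc32a1 (21.3 and 25.0 kb), which encodes the vesicular transporter for the transmitter. Gad1, an enzyme of transmitter synthesis and a Dlx target, was named by a promoter region in replicate 2 alone (15.1 kb). The other such enzyme gene, Gad2, had its nearest region 1476 kb away in replicate 1 and 1579 kb away in replicate 2.

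Of 18 genes of ectoderm, tooth and placenta, tissues in which Dlx3 acts, 7 were named in both (38.9%). Among the widest regions were those at Hoxc13, within the Hoxc region, Msx2, Sp6 (18.5 and 37.7 kb), a factor of tooth and skin, Gata3 (41.8 and 13.3 kb) and Ovol1 (18.6 and 9.22 kb). Trp63, an activator of Dlx3 in epidermis, had no region over it or named for it in either replicate, nor did Klf4 and Bmp2. Of 12 bone and cartilage genes, 4 were named in both (33.3%), namely the cartilage collagen gene Col2a1 (19.1 and 20.1 kb), Alpl (12.7 and 11.6 kb), Sox9 (8.27 and 13.4 kb) and Pthlh (9.86 and 9.75 kb). Bglap, Ibsp, Spp1 and Col10a1, genes of bone matrix and hypertrophic cartilage, had none over them or named for them.

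**Figure D4:**
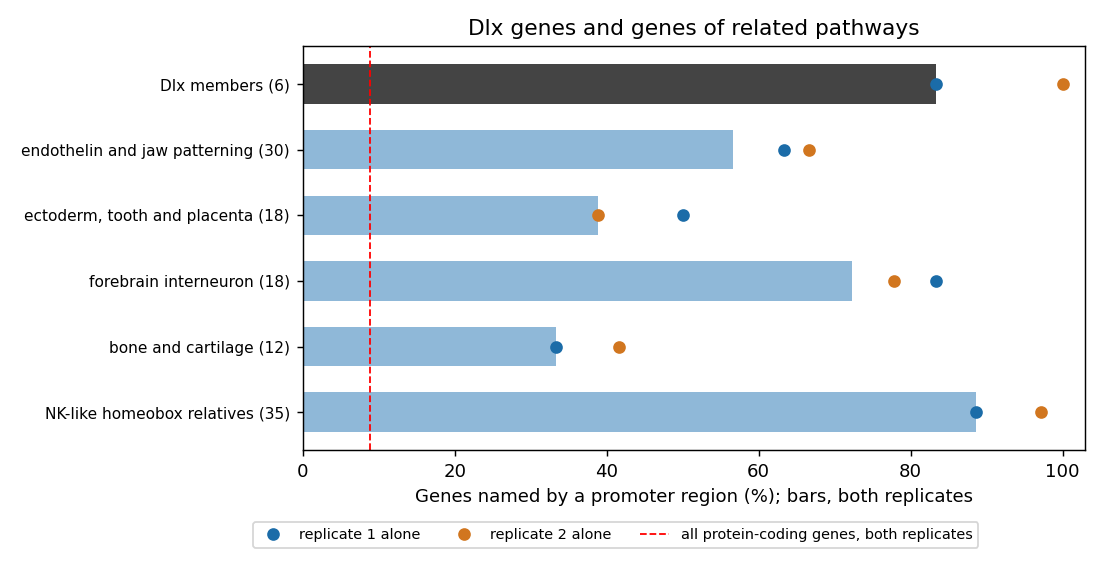
Percent of genes named by a promoter region in both replicates (bars), for the 6 Dlx genes and the 5 lists, with the number of genes in parentheses. Dots, labelled alone, count every gene that replicate 1 (blue) or replicate 2 (orange) named, whether or not the other did. The dashed line, the share of all protein-coding genes named in both (8.82%), belongs to the bars. For single replicates that share was 12.8% and 12.4%. The Dlx genes (83.3%) stand between the forebrain list (72.2%) and the NK-like relatives (88.6%).

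The tissue label cannot be read from the levels of marker genes, because the lists measure a histone mark and not RNA. Of 8 oral epithelial markers 1 was named by a promoter region in both replicates, of 8 mesenchymal markers 5, of 6 neuronal markers 2 and of 6 skeletal muscle markers 1, to be read beside 8.82% of all protein-coding genes. The epithelial one was the keratin gene Krt15 (23.5 and 20.6 kb), and Krt5 was named by a promoter region in replicate 2 alone (14.9 kb). Regions that did not carry their names lay over the integrin genes Itgb4 in both replicates and Itga6 in replicate 1. The epithelial markers Epcam, Cdh1, Krt14 and Trp63 had no region over them in either replicate. The part of other cell types in the Dlx regions was not tested, and fewer cells with the mark cannot be told apart from less mark in each cell.

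The count of Dlx genes depended on the rule that ties a gene to a region. Within 1000 bp of either gene end in both replicates it was 5 of 6, beside 9.93% of all protein-coding genes, and within 5000 bp it was 6 of 6, beside 14.1%. Dlx2 joined the latter count only through the end away from its start. In replicate 1 the nearest region was 1.71 kb from that end and 5.05 kb from the start. Counting a promoter region in either replicate gave 6, beside 16.4%, and counting any location class gave 5, beside 15.3%. Regions above the median width gave 5, beside 6.31%. Of the 2 Dlx genes with a start in the reference table, 1 had it inside a region in both replicates, beside 5.58% of the 17273 protein-coding genes with a start.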

How the data were processed

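The authors deposited 1 region list for each H2AK119ub library, with positions, location class and gene names per the file headers. The submitters' processing notes name mm10, Bowtie2 (2.3.3) and SAMtools (0.1.19) without saying what each did. Peak caller, threshold, input use, coordinate base and class limits: not given in the sources used here. Width is last minus first position. A gene was counted when a promoter region carried its name, and overlap was counted from 1 bp. Gene spans, synonyms and start windows came from RefSeq GRCm38.p6 (all 6 Dlx genes matched). Gene spans there include predicted transcripts. The coverage function was tested base by base on simulated regions. The distance function was tested only for whether it reported an overlap. Mean ± SD is over 2 replicates, and no test or set test was made.

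The members, lists and alternatives were chosen with earlier results of these data known. Named were the Dlx genes, the 4 nearest protein-coding genes on each side, noncoding genes under regions, per list the widest up to 6 and up to 4 without a region, the compared loci and the 3 genes nearest in width. Some genes that this rule selects are not reported here. Other genes named were chosen after their values were seen. Python 3.11.15, numpy 2.4.6, pandas 2.3.3 and matplotlib 3.10.9 were used.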

Additional observations from a re-analysis of the deposited data

How the results depend on the processing

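Other than leaving out a replicate, counts of genes had 16 alternative values, of which 15 stayed within 1.5 times the main count. Coverage, width and percentile had 21, of which 13 stayed within 1 SD of the 2 replicates. That limit is wider where the replicates disagree more: for coverage it was 19.2 at Dlx1 and Dlx2 and 0 at Dlx5 and Dlx6. A value within it is therefore no sign of stability. Shared bases have no replicate spread: of 6 values, 2 equalled the main one and the other 4 are given here. None of these reversed, but counts, widths and percentages have no sign, so this is no support. With 2 replicates, the mean without 1 of them always lies within 1 SD, so those values say nothing about stability. The number of Dlx genes named in both replicates (5) was 1 of the 2 with a known start when the start had to lie in a region. Against promoter regions alone, the mean width percentile was 94.0 for Dlx1 and Dlx2 (97.3 against all regions), 83.0 for Dlx3 and Dlx4 (91.6) and 99.1 for Dlx5 and Dlx6 (99.6), and for that pair it was 99.4 against regions found in both replicates. With 5000 bp added on each side, the covered share was 75.8% at Dlx3 and Dlx4 (89.2%) and 99.0% at Dlx5 and Dlx6 (100%). Joining regions under 5000 bp apart gave a mean width of 33.1 kb at Dlx3 and Dlx4 (19.2 kb), and summing the regions over the span gave 31.1 kb, against 31.4 kb at Dlx1 and Dlx2, so joining, but not summing, put Dlx3 and Dlx4 above that pair. Without either, Dlx3 and Dlx4 had the wider region in replicate 1 (26.6 against 23.8 kb) and the narrower in replicate 2 (11.8 against 39.1 kb). With at least 50% of both regions required, shared bases at Dlx3 and Dlx4 were 24.3% (49.3%). With 50000 bp on each side, shared bases were 58.9% (60.8%), 51.0% (49.3%) and 70.8% (83.9%) at the 3 pairs. Leaving out replicate 1 or replicate 2 gave 6 or 5 Dlx genes. No paired analysis was possible because both libraries with a list belong to 1 group. Depth is unknown, so a missing region is a region not called and not a measured absence of the mark.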

Other observations

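The name Mir5098 was given to 7 regions of replicate 1 between 71620749 and 71817807 on chromosome 2 and to 5 regions of replicate 2 between 71447406 and 71752851, on both sides of Dlx1 and Dlx2 in replicate 2. RefSeq places Mir5098 on chromosome 5. Regions on chromosomes 8 and 17 carried the same name. The gene-body class of those regions beside Dlx1 and Dlx2 therefore rests on a placement of Mir5098 that the reference used here does not share.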
